A study of Mus musculus with 2 samples.

Results

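Hedgehog signalling in the pre-implantation uterus was examined through 10 genes: the ligand gene Ihh, the receptor and co-receptor genes Ptch1, Boc, Cdon and Gas1, the secreted and membrane-bound inhibitor gene Hhip, the signal transducer gene Smo, and the transcription factor genes Gli1, Gli2 and Gli3. They were taken as all probe sets whose single annotated symbol was one of these names, which gave 25 of 45037 non-control probe sets and 10 of 18193 genes. RNA from uterine stromal cells, isolated from C57BL/6 mice at day 4 of pregnancy, was hybridised to Affymetrix 3' expression arrays. The control array held cells of Msx1Msx2 floxed mice, and the null array held cells of mice in which PRcre had ablated Msx1 and Msx2 in the uterus. PRcre drives Cre recombinase from the progesterone receptor gene, which is active in uterine epithelium as well as stroma, so the ablation need not be limited to the stromal compartment. Epithelial clumps were shaken off after dispase and pancreatin digestion and discarded, and stromal cells were then released with collagenase. Each genotype is 1 array of RNA pooled from 5 mice according to the design text, or 4 according to the extraction protocol.

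Indian hedgehog is a secreted ligand that the uterine epithelium makes under the control of progesterone. It binds Ptch1 on the stromal cells beneath, with Boc, Cdon and Gas1 as co-receptors, which relieves Smo from inhibition and lets the Gli factors act on their target genes. Ptch1, Hhip and Gli1 are themselves targets, so their transcripts are commonly read as a measure of pathway output, and Ptch1 and Hhip bind the ligand and restrain the signal. Mice without uterine Ihh fail at implantation.

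With 1 array per genotype there was no spread between animals or hybridisations, so no p-value was computed, and "higher" or "lower" refers to these arrays only. Signals are linear intensities, and a log2 ratio is the log2 signal of the null array minus that of the control array. A signal was set against a floor, the median of all non-control probe sets of its array, at 31.0 for the control array and 30.1 for the null array. Falling under it does not show that a gene was silent. Msx1 went from 1581 to 23.0, at least 52.6-fold lower, and Msx2 from 63.7 to 14.5, at least 2.12-fold lower. Both bounds were set by the floor. The size for Msx1 depends on the probe set: the median log2 ratio of Msx1 and Msx2 was -3.40, but -2.43 without _x_at and _s_at probe sets. The position of the Msx1 and Msx2 probe sets relative to the deleted parts is not given in the sources used here. The ratio of 3' to 5' signal, higher where RNA is less intact, was 0.967 for Gapdh in control cells and 1.28 in null cells, and 1.80 and 2.33 for Actb; its part in the values below was not tested. As a scale of probe noise, the log2 ratios of a gene's brightest pair of probe sets were compared, over all genes with such a pair. This gave an SD per probe set of 0.32 in the dimmest tertile of signal, 0.27 in the middle and 0.21 in the brightest. The signal limits of these tertiles, set on genes with such a pair, were then applied to all genes, so the classes are unequal in size. Ratios that are bounds enter the shares given below for a tertile at their bound, so these shares may be too small.

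The hedgehog genes shared no direction. Of the 10 genes, 5 had a log2 ratio above 0 and 5 below it, and the median was 0.08, against 0.02 over the 11833 genes with a signal above the floor, 52.3% of which had a ratio above 0. Hhip was the 1 member past 2-fold, and it was lower. Over all genes 3.39% passed 2-fold in either direction, made up of 1.80% lower and 1.59% higher. Past 1.5-fold there were 3 members lower, Hhip, Cdon and Boc, and 0 higher, where 6.92% of all genes were lower and 6.79% higher. The 3 Gli genes lay at the upper end of the members. Among the 25 probe sets, 17 were above the floor in both arrays, 2 in the control array alone and 6 in neither. Those 6, which belong to Boc, Cdon, Gas1, Gli3, Ptch1 and Smo, had log2 ratios from -3.11 to 4.30 and are not used below.

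**Figure D1:**
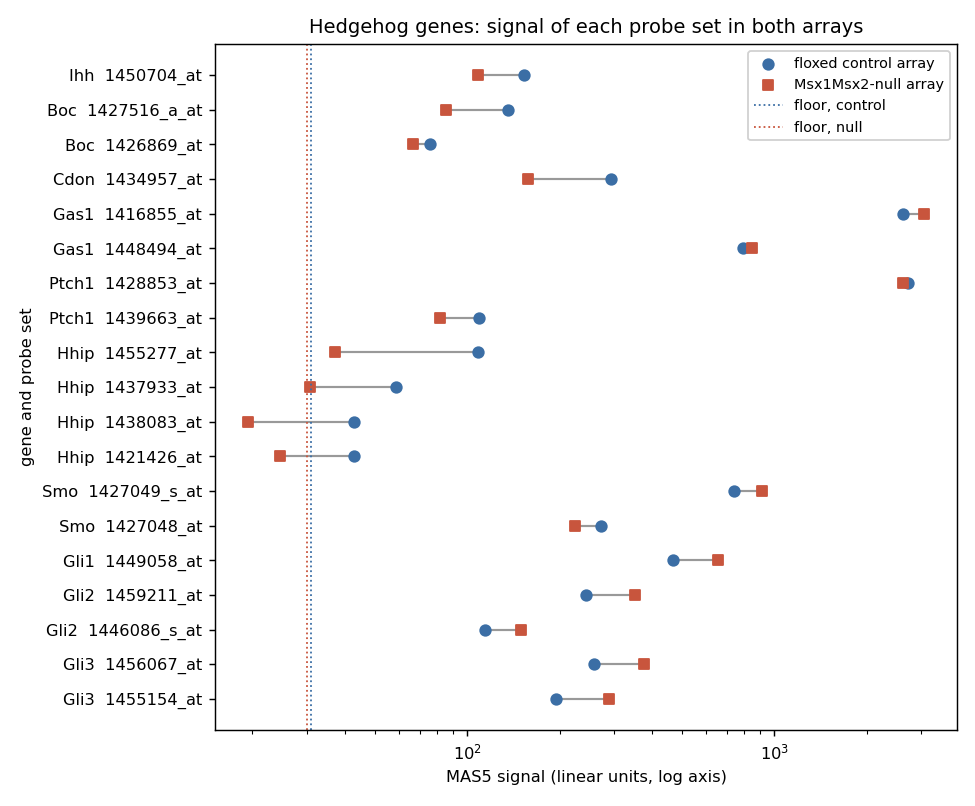
Signal of the 19 hedgehog probe sets above the floor in at least 1 array, on a log axis, with control (circles) and null (squares) joined by a line and the floors of 31.0 and 30.1 dotted. All 4 Hhip probe sets lie lower in the null array, whereas the 5 Gli probe sets lie higher.

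The ligand gene Ihh has a single probe set on the array, 1450704_at, with a signal of 153 in control and 108 in null cells. Ihh was thus 1.42-fold lower, a log2 ratio of -0.50, against an SD of 0.32 for probe sets of its brightness. Among all genes used its ratio lay at percentile 8.99, and 26.4% of genes in the same tertile had a ratio at least as large in size. In a pooled cell preparation like this, fewer cells of a type and less RNA per cell cannot be told apart.

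Because Ihh is an epithelial transcript, its signal in a stromal preparation stands beside that of the epithelial markers. Of 25 measured markers of uterine epithelium, 8 had ratios above 0 and 17 below, with a median of -0.13, so that Ihh lay 0.38 below that median. The summed signal of the list was 16678 in control and 16682 in null cells, and the adhesion molecule gene Epcam went from 987 to 940. The near-equal sums depend on Calb1, which went from 750 to 3804, set against lower signals such as Krt18, from 2822 to 1350. They do not show that epithelial content was equal. Epithelial transcripts were thus present in both preparations, and of the listed markers with a probe set Wnt7a alone was under the floor in both. Members past 2-fold went both ways, with Ltf, Calb1 and Krt19 higher and Cldn8, Esrp2, Prom1 and Krt18 lower. On its other probe set, near the floor, Esrp2 was level at 34.9 (control) and 34.7 (null). Over all genes 52.3% had a ratio above 0, 1.59% were past 2-fold higher and 1.80% were past 2-fold lower. Gland markers were lower by far more: 9 of 10 had ratios below 0, 8 of them past 2-fold (Spink1, Ttr, Prss29, Wfdc3, Prss28, Foxa2, Cxcl15 and Lif), and the summed signal went from 9201 to 896. Part of the gland list was chosen because those genes were already known to be low in this null array, so its direction is no independent evidence. The part of the epithelial or gland content in the Ihh value was not tested.

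**Figure D2:**
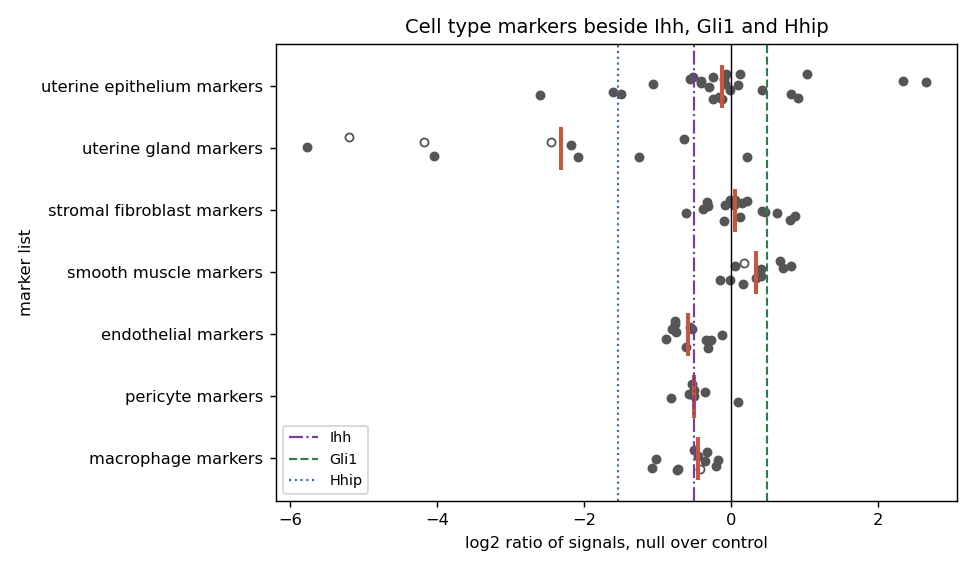
Log2 ratio of signals, null over control, for each marker gene (points, open where 1 signal was under the floor and the ratio is a bound) with the list median as a vertical bar, and lines at the ratios of Ihh, Gli1 and Hhip. The Ihh line at -0.50 lies below the epithelial median of -0.13 and far above the gland median of -2.31; the Gli1 line at 0.48 lies above the medians of all 7 lists.

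The receptor gene and the inhibitor gene, both targets of the pathway, had unlike ratios. Ptch1, the receptor that holds Smo inactive until ligand binds, had signals of 2723 (control) and 2629 (null) on probe set 1428853_at, a log2 ratio of -0.05. On its dimmer probe set, 1439663_at, the signals were 109 and 81.7, a log2 ratio of -0.42. Both probe sets were thus on the lower side, but the brighter one was all but level between the arrays.

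Hhip, a membrane-anchored and shed protein that binds hedgehog ligands and keeps them from Ptch1, was lower on each of its 4 probe sets. On 1455277_at the signal went from 109 to 37.2, 2.92-fold lower and a log2 ratio of -1.55. The next probe set, 1437933_at, went from 58.6 to 30.8, 1.90-fold lower and just above the floor in the null array. The remaining pair went from 42.9 to 19.4 and from 42.8 to 24.5, each under the floor in the null array and at least 1.43-fold and 1.42-fold lower. These probe sets stem from different source sequences, and of 510 genes with 4 probe sets above the floor in an array, 19.4% had all 4 lower. The ratio of Hhip lay at percentile 0.566 of all genes used, and 1.40% of genes in the dimmest tertile had a ratio as large in size. Of its control signals only the 109 stood far above the floor of 31.0, and those of the remaining pair, 42.9 and 42.8, were near it. Hhip is thus dim, and its null signals were near or under the floor. With the floor at the 65th percentile its ratio became a bound of -0.42, and as the median over its probe sets it was -0.74, so that in neither case did it pass 2-fold.

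Promoters are shown for the ligand gene and for these feedback genes, targets with unlike ratios. Each is the run of 250 bases before the annotated start, 5′ to 3′ on the strand of the gene, from RefSeq on GRCm38.p6. Ihh lies at chr1:74951673-74951922, Ptch1 at chr13:63565736-63565985 and Hhip at chr8:80058009-80058258, all on the minus strand. Capitals mark the GC box GGGCGG and the cAMP response element TGACGTCA, read on both strands.
Ihh: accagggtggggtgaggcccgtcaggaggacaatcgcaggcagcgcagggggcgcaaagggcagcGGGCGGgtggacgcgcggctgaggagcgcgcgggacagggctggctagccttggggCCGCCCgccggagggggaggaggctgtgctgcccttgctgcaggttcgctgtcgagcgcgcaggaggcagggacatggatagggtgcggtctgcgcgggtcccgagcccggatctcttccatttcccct
Ptch1: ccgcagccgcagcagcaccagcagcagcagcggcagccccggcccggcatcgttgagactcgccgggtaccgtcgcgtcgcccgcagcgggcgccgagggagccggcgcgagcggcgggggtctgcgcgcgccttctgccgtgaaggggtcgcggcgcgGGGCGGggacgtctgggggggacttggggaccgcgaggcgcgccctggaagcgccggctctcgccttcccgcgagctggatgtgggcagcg
Hhip: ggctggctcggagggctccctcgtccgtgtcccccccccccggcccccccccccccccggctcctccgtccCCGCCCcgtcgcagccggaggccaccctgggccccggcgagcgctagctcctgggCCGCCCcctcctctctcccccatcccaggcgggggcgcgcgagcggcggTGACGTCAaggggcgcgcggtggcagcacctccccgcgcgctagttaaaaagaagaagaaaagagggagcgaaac

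No match to the Gli consensus GACCACCCA, which 0.225% of 32851 RefSeq promoter windows of this length hold, was found in these or in the other 5 member promoters at hand (Cdon, Gas1, Gli2, Gli3 and Smo). Its core CCACCCA, present in 8.11% of windows, and CAATTA, a site that Msx homeodomains can bind, present in 7.17%, were not found in them either. Hhip alone held TGACGTCA, from 75 to 68 bases before the start, an element found in 1.55% of windows. GC boxes occurred in 6 of the 8 member promoters, against 32.7% of all windows, and in Ihh, Ptch1 and Hhip they numbered 2, 1 and 2. The CCAAT box occurred in 1 of the 8, Gas1, against 33.8% of windows, and TATAAA in 0, against 12.4%. The elements other than the Gli and Msx sites were added after the sequences had been seen. A match is a description of letters, and its absence says only that they are not in this window.

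The transcription factor genes were all higher in the null array, each by less than 2-fold. Gli1, an activator that is itself switched on by the pathway, went from 469 to 657 on its single probe set, a log2 ratio of 0.48. Gli2, the main activator, went from 244 to 351 and, on its other probe set, from 114 to 149, log2 ratios of 0.53 and 0.38. These probe sets share a source sequence and are not independent. Gli3, which acts mostly as a repressor when ligand is absent, went from 259 to 376 and from 195 to 290, log2 ratios of 0.54 and 0.57 on probe sets of different source sequences. All 5 probe sets were thus higher by 1.30-fold to 1.49-fold. The ratios of Gli1, Gli2 and Gli3 lay at percentiles 90.1, 91.7 and 92.0 of all genes used, and between 12.0% and 13.7% of genes in their tertiles had ratios as large in size. Each kept its sign under every alternative tried, the ranges being 0.48 to 0.50 for Gli1, 0.45 to 0.54 for Gli2 and 0.54 to 0.56 for Gli3. Most alternatives could not move Gli1, which has a single probe set well above the floors. The changes of floor could not move Gli2 or Gli3 either, so these ranges add little support.

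Stromal markers, which stand for the cells that receive the signal, were close between the arrays. Of 17 stromal fibroblast markers 10 had ratios above 0 and 7 below, the median was 0.05, 0 passed 2-fold, and the summed signals were 68761 (control) and 70270 (null). Vim went from 8372 to 6694, and Wnt5a, Hoxa11, Hand2 and Mme had the largest log2 ratios at 0.87, 0.80, 0.63 and -0.61. Smooth muscle markers were on the higher side, 9 of 11 with ratios above 0, a median of 0.33 and a summed signal of 11165 and 14904, led by Synpo2, Cnn1, Actg2 and Acta2. Endothelial markers (0 of 12 above 0, median -0.59, summed signal 5606 and 3672, led by Emcn, Pecam1, Tek and Eng) and pericyte markers (1 of 7, median -0.51, 9353 and 6558, led by Notch3, Abcc9, Mcam and Rgs5) were on the lower side. So were macrophage markers (0 of 11, median -0.45, 9500 and 6702), of which Fcgr3 and Mrc1 passed 2-fold. Over all genes 52.3% had a ratio above 0, 1.59% were past 2-fold higher and 1.80% lower. The part of these cell types in the Gli, Hhip and co-receptor values was not tested.

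The signal transducer gene Smo could not be given a direction. Its probe set 1427049_s_at went from 742 to 911, a log2 ratio of 0.30, whereas 1427048_at, designed on the same source sequence, went from 273 to 224, a log2 ratio of -0.29. Among genes with 2 probe sets above the floor, 37.1% had such opposite signs. The first stands for the gene by its brightness, and without probe sets of the _s_at and _x_at kinds the sign of Smo turned.

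The co-receptors went apart. Cdon, a cell-surface protein of the immunoglobulin family that helps ligand bind Ptch1, had signals of 294 and 157 on its single probe set above the floor, 1.87-fold lower and a log2 ratio of -0.90. Its ratio lay at percentile 2.36, and 3.55% of genes in the middle tertile had a ratio as large in size. Boc, the close relative of Cdon, went from 136 to 85.4, a log2 ratio of -0.67 at percentile 5.09, a size that 14.9% of genes in the dimmest tertile reached. On its other probe set above the floor it went from 75.9 to 66.8, a log2 ratio of -0.19, so the size of the difference depended on the probe set. Gas1, a lipid-anchored co-receptor of stromal and mesenchymal cells, went from 2634 to 3066 and from 794 to 848, log2 ratios of 0.22 and 0.10. Gas1 thus lay on the other side of 0 from Cdon and Boc, but by about the SD of 0.21 between probe sets of its tertile.

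**Figure D3:**
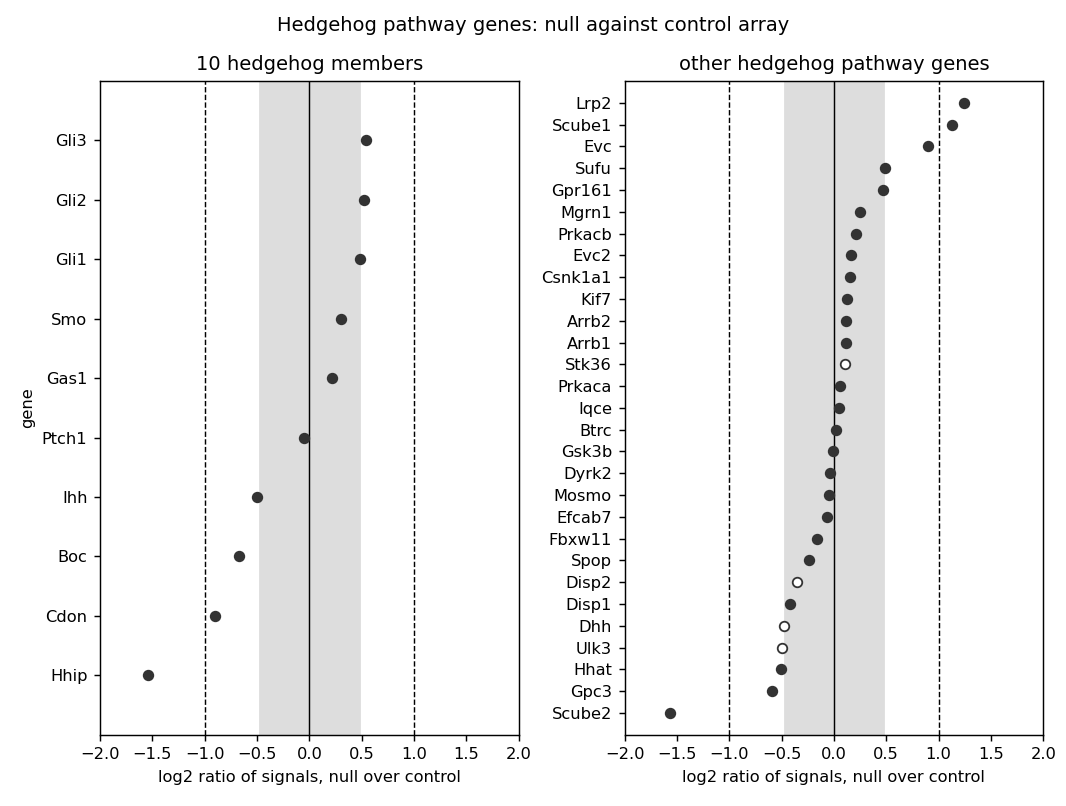
Log2 ratio of signals, null over control, for the 10 members (left) and the 29 other pathway genes above the floor (right). Open points are bounds, dashed lines mark 2-fold, and the grey band holds the central 80% of all genes used, from -0.47 to 0.48; Hhip and Scube2 lie furthest to the left, Lrp2 and Scube1 furthest to the right.

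Most other genes of the pathway were within 2-fold. Of 34 listed, 31 had a probe set, and 29 were above the floor in an array, 16 with ratios above 0 and 13 below, with a median of 0.05. Past 2-fold, 2 were higher and 1 was lower, where 1.59% of all genes were higher and 1.80% lower. Scube2, a secreted protein that helps release lipid-modified hedgehog from the producing cell, went from 102 to 34.6, 2.95-fold lower. Its relative Scube1 went from 37.4 to 81.8, 2.19-fold higher, and Scube3 was under the floor in both arrays. Lrp2, the endocytic receptor megalin, which can bind hedgehog ligands and is also an epithelial progesterone target, went from 253 to 598 and, on its other probe set above the floor, from 138 to 303, 2.37-fold and 2.19-fold higher. Disp1, which exports the ligand, and Hhat, which attaches palmitate to it, had log2 ratios of -0.42 and -0.50, and Gpc3, a glypican that binds hedgehog and competes with Ptch1, went from 547 to 362, a log2 ratio of -0.59.

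The other ligand genes gave little signal. Neither Shh probe set reached the floor in either array, the brighter in mean being at 4.23 and 13.0. Dhh went from 41.8 to 18.0, at least 1.39-fold lower, with the remaining probe set under the floor. Ihh was therefore the 1 hedgehog ligand gene above the floor in both arrays.

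Within the cell, Evc, a cilium protein that binds active Smo, went from 97.3 to 181, a log2 ratio of 0.90, while its partner Evc2 had 0.17. Sufu, the inhibitor that holds Gli proteins in the cytoplasm, went from 216 to 304 (log2 ratio 0.49), and Gpr161, a receptor that keeps the pathway off through protein kinase A, had 0.47. Kif7, the kinesin that arranges Gli proteins at the cilium tip, had 0.12. The kinase genes that mark Gli proteins for processing lay close to 0, with Prkaca at 0.05, Prkacb at 0.21, Gsk3b at -0.01 and Csnk1a1 at 0.16. Of 24 genes of the primary cilium, the organelle in which Smo meets the Gli proteins, 13 had ratios above 0 and 11 below. Their median was 0.14 and 0 passed 2-fold. Wdr35, Ift88, Bbs1 and Cep164 had 0.59, 0.49, 0.48 and 0.40, and the lowest, Cep290, had -0.27. For comparison, 52.3% of all genes used had a ratio above 0 and 3.39% passed 2-fold in either direction. At that share a count of 0 in 24 genes says little.

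Genes that respond to hedgehog in mesenchyme of various tissues had more ratios below 0 than above it. Of 32 listed, 26 were above the floor, 9 with ratios above 0 and 17 below, and the median was -0.13. Of all genes used, 52.3% had a ratio above 0, and their median was 0.02. The list was chosen with earlier results of these data known, so its split is a description only. Past 2-fold, 2 were lower and 0 higher, where 1.80% of all genes were lower and 1.59% higher. Nr2f2, the stromal nuclear receptor COUP-TFII through which uterine Ihh acts, went from 2309 to 2179, a log2 ratio of -0.08. The remaining Nr2f2 probe sets above the floor lay between -0.20 and 0.18. Bmp2, a decidual growth factor downstream of Nr2f2, went from 202 to 182, a log2 ratio of -0.15. Both were therefore nearly level, like Ptch1 on its brighter probe set.

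Igfbp3 and Ntn1 were the members of this list past 2-fold. Igfbp3, a binding protein of insulin-like growth factors, went from 1128 to 354, 3.18-fold lower, and from 517 to 200.4 on its other probe set. Ntn1, the guidance cue netrin 1, went from 701 to 231, 3.04-fold lower. Sfrp1, a Wnt antagonist, went from 147 to 73.8, 1.99-fold lower, and the Notch ligand gene Jag2 had a log2 ratio of -0.77. Foxf1, a forkhead factor induced by hedgehog in gut and lung mesenchyme, went from 107 to 69.4, a log2 ratio of -0.62. On the higher side were Hsd11b2, which inactivates glucocorticoids and went from 2126 to 3469 (log2 ratio 0.71), and Prdm1 at 0.69. Foxf2, Foxl1, Foxc2 and Foxd1 were under the floor in both arrays. These genes also answer to other signals, so their values do not measure hedgehog input alone.

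**Figure D4:**
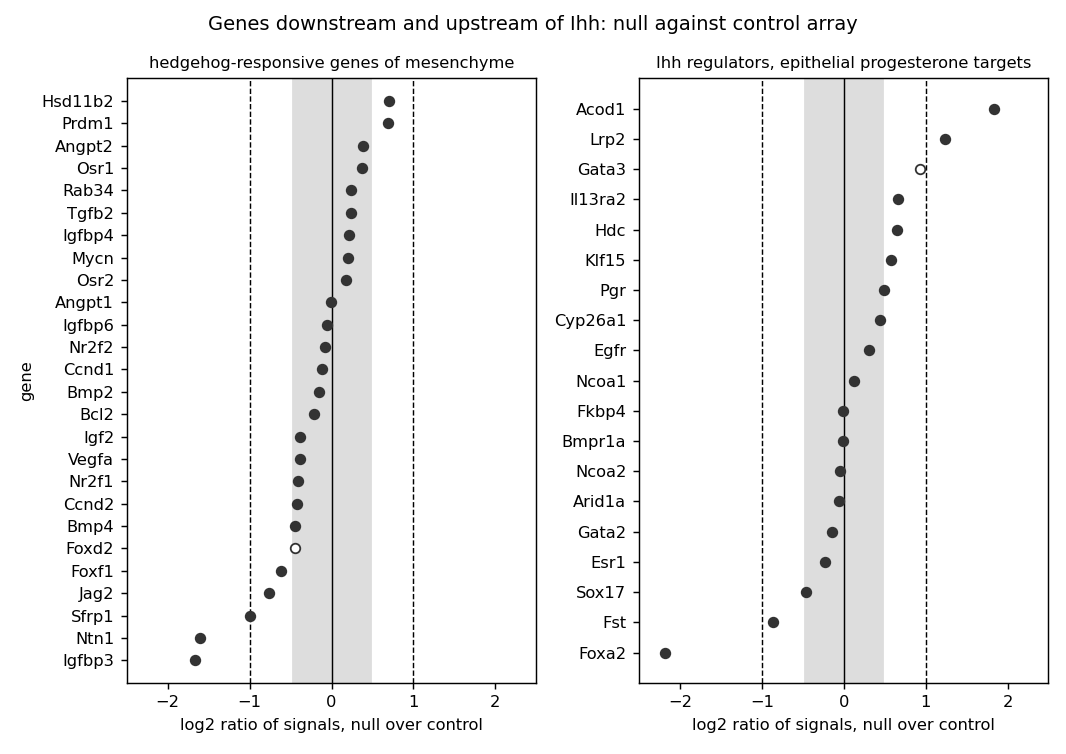
Log2 ratio of signals, null over control, for 26 hedgehog-responsive genes of mesenchyme (left) and 19 regulators of Ihh or epithelial progesterone targets (right). Open points are bounds, dashed lines mark 2-fold and the grey band holds the central 80% of all genes used; Igfbp3 and Ntn1 lie furthest left in the first panel, and Foxa2 (left) and Acod1 (right) at the ends of the second.

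Upstream of Ihh, Foxa2 alone of the listed regulators passed 2-fold, while Pgr, Gata2, Sox17 and Arid1a were among those within it. Single epithelial progesterone targets passed 2-fold as well. Pgr, the progesterone receptor gene, went from 1891 to 2663, a log2 ratio of 0.49. The null mice carried PRcre, which is driven from this gene, and the control label names no Cre. The part of PRcre itself in the Pgr value was not tested. Gata2, which acts with the receptor on Ihh, went from 821 to 743, a log2 ratio of -0.14. Sox17, a further regulator of Ihh in the epithelium that is also expressed by endothelium, went from 2074 to 1506 and from 853 to 649, log2 ratios of -0.46 and -0.39. The chromatin remodeller gene Arid1a had -0.06. Foxa2, the forkhead factor of the glands, is listed here as a regulator and also among the gland markers. It went from 397 to 87.4, 4.54-fold lower.

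Of the 19 measured genes in this list, 10 had ratios above 0 and 9 below, and the median was 0.13. Past 2-fold were 2 higher and 1 lower, against 1.59% and 1.80% of all genes. Acod1, an itaconate-producing enzyme and epithelial progesterone target, went from 231 to 820, 3.55-fold higher, and Lrp2 was the other. The interleukin receptor gene Il13ra2, the histidine decarboxylase gene Hdc and the retinoic acid hydroxylase gene Cyp26a1 had log2 ratios of 0.66, 0.65 and 0.45, and Gata3 was at least 1.91-fold higher, from 18.2 to 59.2. Ihh, at -0.50, lay on the other side of 0 from these targets, as did the follistatin gene Fst, which went from 1423 to 780, a log2 ratio of -0.87.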

How the data were processed

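Per the submitters' processing notes, the authors used MAS5 and Affymetrix Expression Console 1, and the deposited table holds a linear intensity for every probe set on each array. Its scaling settings, detection calls and genome build are not given in the sources used here. The MAS5 method subtracts mismatch signal, which makes ratios of dim probe sets unstable. Here 1 array per genotype limits the precision.

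Of 45101 probe sets, 64 Affymetrix controls were left out, and the 34945 with 1 symbol in the platform annotation were used (932 had several, 9160 none). Log2 signals were not rescaled. A gene is represented by whichever of its probe sets was brightest on average (mean log2 signal). A signal under the 50th percentile of its array was raised to that floor, giving a bound, except in 35 of 696 such genes whose ratios, at most 0.045 in size, are no bounds because the floors differ. Calls were by size alone, at 2-fold. The 6360 genes under the floor in both arrays were left out. The script was checked on simulated arrays with planted ratios.

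The members and gene lists were chosen with earlier results of these data known. The rule named all 10 members, Msx1 and Msx2, list members past 2-fold or otherwise the 4 largest ratios, and genes that define a role; further list members were named after their values were seen. Mesothelial markers, of which 2 were above the floor, had a median of 0.37. Promoters came from RefSeq on GRCm38.p6 and matched 8 of 10 members; Boc and Gli1 had no entry. Alternatives were no floor, a floor at the 65th percentile, the median over probe sets, leaving out _x_at and _s_at probe sets, centring, quantile normalization and a 1.5-fold threshold. Python 3.11.15, pandas and numpy were used.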

Additional observations from a re-analysis of the deposited data

How the results depend on the processing

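Of 60 member values under 6 alternatives, 56 moved by less than the SD between probe sets of their brightness, and 1, that of Smo, changed sign. Many of the 60 could not move. Changes of floor do not act on bright signals, nor does the choice of probe sets on genes with a single one. Hhip was a bound of -0.42 with the floor at the 65th percentile and -0.74 with the median over probe sets, and under each of these settings 0 members were past 2-fold lower; at 1.5-fold there were 3. Smo was 0.0052 with the median over probe sets and -0.29 without _x_at and _s_at probe sets. The median of the 10 members was -0.11 and -0.17 under these same settings, so its sign depends on the processing. Over all genes the counts higher and lower were 1797 and 1772 with no floor, 97 and 123 with the floor at the 65th percentile, and 804 and 819 at 1.5-fold, against 188 and 213. Of 260 values of the other lists, 230 stayed close and 30 moved, mostly small counts. No replicate could be left out with 1 array per genotype. No paired analysis was possible because each genotype has a single pooled array. Signal near the floor limits what can be said of Hhip, Dhh, Scube1 and Scube2, and no value covers the spread between mice.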
